A study of Mus musculus with 2 samples.

Results

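The Hox genes are homeobox genes that lie in 4 clusters, HoxA to HoxD, and encode transcription factors that give cells their position along the body axis. All probe sets of the array whose only gene symbol in the platform annotation is Hoxa, Hoxb, Hoxc or Hoxd with a number were taken, and no antisense or Rik gene was used. Of the 39 Hox genes in the RefSeq gene table, 33 had at least 1 such probe set, with 48 probe sets in all, and the others had no probe set of their own by this rule. The array holds 45101 probe sets.

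Within a cluster the genes stand in the order in which they are used along the body, and genes with the same number in different clusters are paralogues with related proteins. Genes numbered 1 to 3 act mostly in the head and neck, those from 4 to 8 in the trunk, and those from 9 to 13 in the lumbar, sacral and tail region, the limbs and the urogenital tract. In the female, posterior HoxA genes pattern the Müllerian duct into oviduct, uterus, cervix and vagina. Hox proteins bind DNA together with homeodomain proteins of the TALE class (Pbx, Meis and Pknox), and Polycomb and trithorax proteins keep the clusters silent or active.

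The arrays compared 2-day-old ovaries of Amhr2(cre/+)-SmoM2 mutant mice with those of Amhr2(+/+)-SmoM2 control mice, to ask what hedgehog signalling that is switched on in the ovary does to gene expression. SmoM2 is a Smoothened protein that signals without hedgehog ligand, and both genotypes carry its allele. Cre from the Amhr2 locus, which is active in somatic cells of the gonad, releases SmoM2 in the mutant only, so Cre, the altered Amhr2 copy and SmoM2 activity cannot be told apart. Equal RNA amounts from the ovaries of 8 mice were pooled per genotype, and each pool was hybridised to 1 Affymetrix array. Each group is thus 1 array, so that none of the differences has a replicate check or a p-value. The spread between animals was not measured.

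A probe set was called measured when the higher of its 2 signals reached 80.7, the median of all values on both arrays. Of several measured probe sets, the brightest on average stands for the gene. Each log2 ratio is mutant over control, with 22.2 (the 25th percentile of all values) added to both signals, which understates the change of dim genes. Between measured probe sets of 1 gene this log2 ratio had an SD of 0.38 over all genes, and 0.47 among probe sets with mean signals from 43.4 to 184.9. Over the 11 measured probe sets of the 5 Hox genes with more than 1, it was 0.54. Most single Hox ratios below were smaller than 0.54. The SD named below is the 0.38 of all genes. Probes differ in brightness for the same amount of RNA, so signals of different probe sets do not rank amounts of RNA. Summed signals of marker lists below therefore follow mainly the brightest probe sets of each list. The Gli1 and Ptch1 genes, both direct hedgehog targets, had log2 ratios of 1.19 and 1.51, in the direction that the labels give. Smo itself had 0.28 on its brightest probe set and 0.49 on the other measured one, and these probe sets do not tell the SmoM2 form from the normal one. The signal ratio of 3' to 5' probe sets, a sign of RNA integrity, differed between the arrays, at 8.48 in control and 10.5 in mutant ovaries for beta-actin and 3.28 and 4.98 for Gapdh.

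Of the 33 Hox genes, 17 were measured and 16 did not reach the minimum in either pool. The measured genes were Hoxa3, Hoxa5 and Hoxa9 of the HoxA cluster (3 of 9 genes with a probe set) and Hoxb2, Hoxb3, Hoxb4 and Hoxb9 of HoxB (4 of 9). They also included Hoxc4, Hoxc5, Hoxc6, Hoxc8, Hoxc9 and Hoxc10 of HoxC (6 of 7) and Hoxd3, Hoxd8, Hoxd9 and Hoxd10 of HoxD (4 of 8). No gene numbered 11 to 13 was measured in either pool. The 6 genes Hoxa3, Hoxa5, Hoxa9, Hoxb9, Hoxc9 and Hoxd10 were at least 1.5-fold higher in the mutant pool by log2 ratio, and 0 were that much lower. The share past 1.5-fold upward among all 12308 genes measured on the arrays was 9.32%, and the share past it downward 7.90%. Between mean signals of 49.5 and 2041, the range of the Hox genes, the shares were 10.4% and 9.24%. Hoxa9 and Hoxc9 also passed 2-fold upward, as did 3.21% of all measured genes, and 0 Hox genes passed it downward, as did 1.40%. Hoxb9 and Hoxc9 were measured only through the mutant pool and Hoxb4 only through the control pool, so they had to differ between the pools, and the counts, medians and correlation of Hox genes below leave them out unless all 17 are named.

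Among the 14 Hox genes at or above the minimum in both pools, 4 were at least 1.5-fold higher (Hoxa3, Hoxa5, Hoxa9 and Hoxd10) and 0 lower. The same rule over all genes gave 11323 genes, of which 7.18% were past 1.5-fold upward and 6.40% downward. Of the 14 genes, 12 had a log2 ratio above 0, and all but Hoxc6 and Hoxd9 were thus brighter in the mutant pool. With only probe sets of the plain _at kind, Hoxa3 and Hoxc6 each changed sign, and Hoxa5 had 0.30, under 1.5-fold. Above 0 were 47.0% of all genes held to the same rule. The median log2 ratio was 0.40 for the 14 Hox genes and -0.02 for all genes. With no filter on signal, 33 of the 48 Hox probe sets (68.8%) read higher in the mutant pool, against 46.7% of all probe sets with 1 gene symbol. Hox genes of a cluster share regulation and can vary together, so they are not independent points.

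**Figure D1:**
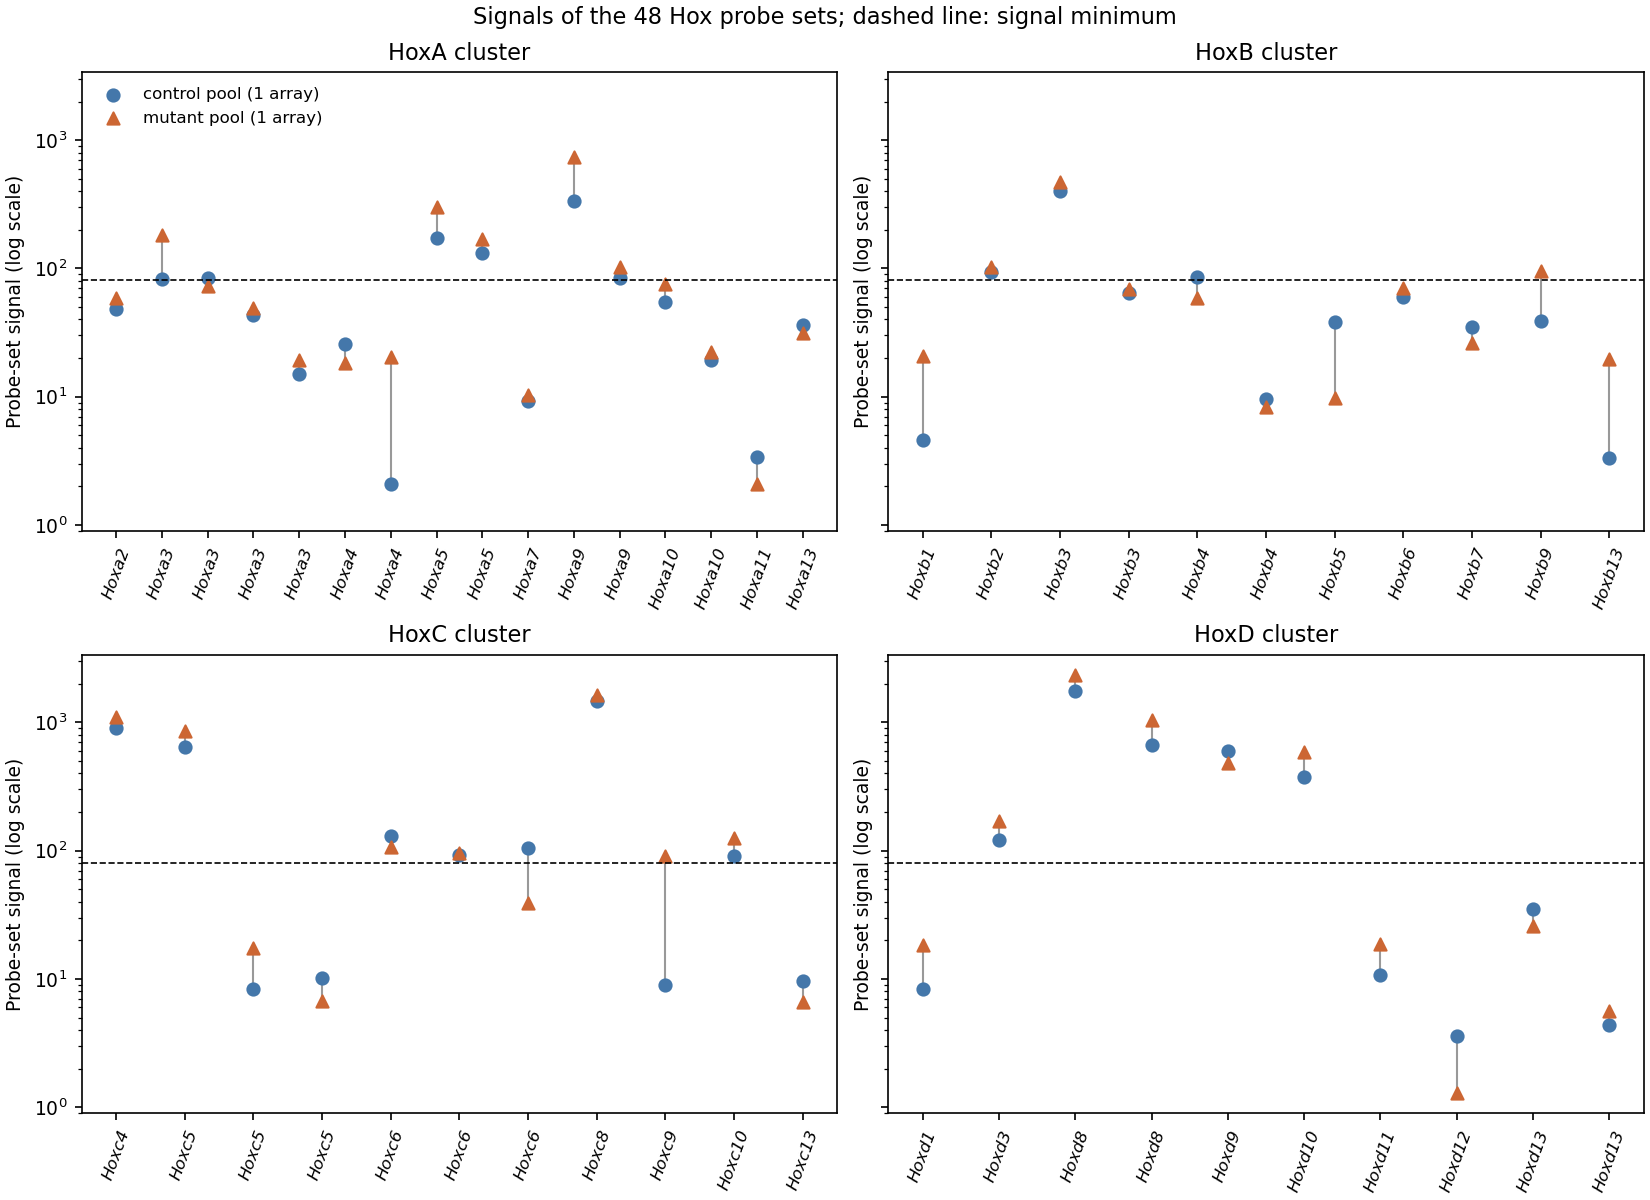
Signals of all 48 Hox probe sets on a log axis, by cluster and in the order of paralogue number, with 1 point per pool. Circles are the control pool, triangles the mutant pool, and the dashed line is the signal minimum of 80.7. All probe sets of genes numbered 11 to 13 lie under the line, and the first Hoxa9 and Hoxa3 probe sets have the widest gaps among those with both points above it.

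Hoxa9 (Entrez gene 15405), a posterior factor that is active along the oviduct, read 335.8 in control and 744.1 in mutant ovaries, which is 2.22-fold higher (log2 ratio 1.10). Its other probe set read 84.4 and 102.7, a log2 ratio of 0.23, so the probe sets had the same direction but differed in size by more than the SD between probe sets. Hoxd10 (15430), a posterior gene of limb and urogenital tissue, read 375.2 in control and 584.0 in mutant ovaries (1.56-fold, log2 ratio 0.61) on its only probe set. That ratio was 0.54, under 1.5-fold, when 80.7 was added to both signals in place of 22.2. Hoxd9 (15438), the HoxD paralogue of Hoxa9 and the neighbour of Hoxd10, went the other way, with 598.0 in control and 483.1 in mutant ovaries (log2 ratio -0.30). That difference was smaller than the SD between probe sets.

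The bases in front of these 3 genes are shown because Hoxd9 and Hoxd10 lie next to each other in 1 cluster and yet differed in direction, while Hoxa9 of another cluster went with Hoxd10. Each is the 250 bases before the RefSeq gene start (GRCm38.p6), written 5′ to 3′ on the strand of the gene, with CpG dinucleotides in capitals. The Hoxa9 window is chr6:52227371-52227620 on the minus strand, the Hoxd9 window chr2:74697513-74697762 on the plus strand and the Hoxd10 window chr2:74691641-74691890 on the plus strand.
Hoxa9: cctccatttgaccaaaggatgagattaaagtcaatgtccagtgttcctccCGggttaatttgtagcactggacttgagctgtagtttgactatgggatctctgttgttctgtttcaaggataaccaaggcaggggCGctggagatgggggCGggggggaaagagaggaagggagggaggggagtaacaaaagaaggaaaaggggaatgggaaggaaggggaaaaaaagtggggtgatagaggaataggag
Hoxd9: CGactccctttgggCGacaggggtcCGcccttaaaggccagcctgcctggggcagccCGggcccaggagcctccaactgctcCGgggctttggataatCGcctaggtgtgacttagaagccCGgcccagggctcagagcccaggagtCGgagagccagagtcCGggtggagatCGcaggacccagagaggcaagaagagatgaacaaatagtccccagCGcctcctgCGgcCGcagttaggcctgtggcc
Hoxd10: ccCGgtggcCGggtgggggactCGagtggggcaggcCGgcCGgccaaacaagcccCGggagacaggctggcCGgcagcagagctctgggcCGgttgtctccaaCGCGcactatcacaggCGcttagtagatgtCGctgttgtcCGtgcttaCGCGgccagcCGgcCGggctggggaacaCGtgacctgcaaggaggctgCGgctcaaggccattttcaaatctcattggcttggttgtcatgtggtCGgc

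The Hoxa9 window held 3 CpG dinucleotides and 49.6% G and C. The Hoxd9 and Hoxd10 windows held 13 and 20 CpG, with 65.2% and 65.6% G and C. A link between base content and the log2 ratios was not tested. RefSeq windows were found for 22 of the 39 Hox genes (24 windows, as Hoxa10 and Hoxd11 each had a pair), and their median of 12.5 CpG stood beside 6 for all 32851 windows in the table. The motif GACCACCCA, the consensus of the Gli factors that carry the hedgehog signal, was in 0 of the 24 Hox windows on either strand and in 0.225% of all windows. The motif TGATTNAT, bound by Pbx and Hox proteins together, was in 2 Hox windows, of Hoxa2 and Hoxd11, and in 2.83% of all windows. The motif TATAAA was in 4 Hox windows, of Hoxa10, Hoxb8, Hoxd4 and Hoxd13, and in 12.4% of all. All were searched on both strands. No Hox window held more than 1 kind of motif, and those of Hoxb8 and Hoxd13 each matched TATAAA 2 times. These counts describe letters in a short window and say nothing about binding by a factor.

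Of the other posterior genes, Hoxc10 (209448), which marks lumbar level and the hindlimb, read 90.5 in control and 125.8 in mutant ovaries (log2 ratio 0.39). Hoxb9 (15417), a gene of the thoracic skeleton, read 39.1 and 94.9, at least 1.18-fold higher, because the control value lay under the minimum. Hoxc9 (15427) read 8.9 and 90.1, at least 1.12-fold higher, and its log2 ratio of 1.85 depended on the pseudocount. With the pseudocount at 1 that ratio was 3.20, with it at the median of all values 0.93, and with values raised to the minimum 0.16. The sizes of the Hoxb9 and Hoxc9 differences were therefore not measured. Of the 2 genes of paralogue group 9 that reached the minimum in both pools, Hoxa9 read higher and Hoxd9 lower in the mutant pool. In group 10, Hoxc10 and Hoxd10 were measured and both read higher.

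Among the genes numbered 4 to 8, Hoxa5 (15402), which is needed for lung and neck mesenchyme, read 172.9 in control and 301.2 in mutant ovaries (1.74-fold, log2 ratio 0.73). Its second probe set read 132.9 and 168.5 (log2 ratio 0.30), so both were higher in the mutant pool and 1 of them passed 1.5-fold. Hoxd8 (15437), a gene of the trunk, read 1754.6 in control and 2326.7 in mutant ovaries (log2 ratio 0.40). Its other probe set read 668.7 and 1052.7 (log2 ratio 0.64), past 1.5-fold. Hoxc5 (15424) read 639.2 in control and 853.0 in mutant ovaries (log2 ratio 0.40), while its other probe sets stayed between 6.7 and 17.5. Hoxc4 (15423) read 907.1 and 1103.9 (log2 ratio 0.28), and Hoxc8 (15426), a gene of the thoracic level, 1460.3 and 1637.0 (log2 ratio 0.16). The differences of Hoxc4 and Hoxc8 were within the SD between probe sets, although both genes had strong signals.

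Hoxc6 and Hoxb4 were the central genes that read lower in the mutant pool. Hoxc6 (15425) read 131.2 in control and 106.4 in mutant ovaries on its brightest probe set (log2 ratio -0.25), 92.7 and 95.1 on another (0.03), and 105.7 and 39.2 on the third (-1.06). The 3 probe sets of Hoxc6 thus ran from level to at least 1.31-fold lower, a wider range than the SD between probe sets. Hoxb4 (15412), known for its part in blood stem cells, read 85.3 in control and 58.9 in mutant ovaries, at least 1.06-fold lower.

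Among the genes numbered 1 to 3, Hoxa3 (15400), a gene of the pharyngeal arches, read 82.3 in control and 181.8 in mutant ovaries (2.21-fold, log2 ratio 0.97). A second measured probe set of Hoxa3 read 84.6 and 73.2 (log2 ratio -0.16), and the remaining ones read at most 49.2 in both pools. The higher Hoxa3 probe set is of the kind (_s_at) that can detect several transcripts, and the brighter Hoxa5 and Hoxc6 probe sets are of the kind (_x_at) whose probes can cross-hybridise. Hoxd3 (15434) read 121.2 in control and 169.5 in mutant ovaries (log2 ratio 0.42). Hoxb3 (15410) read 401.0 and 468.4 (0.21), and Hoxb2 (103889), a hindbrain gene, 94.1 and 102.0 (0.09). All 4 of these anterior genes thus had a brightest probe set that read higher in the mutant pool, but Hoxa3 alone passed 1.5-fold.

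**Figure D2:**
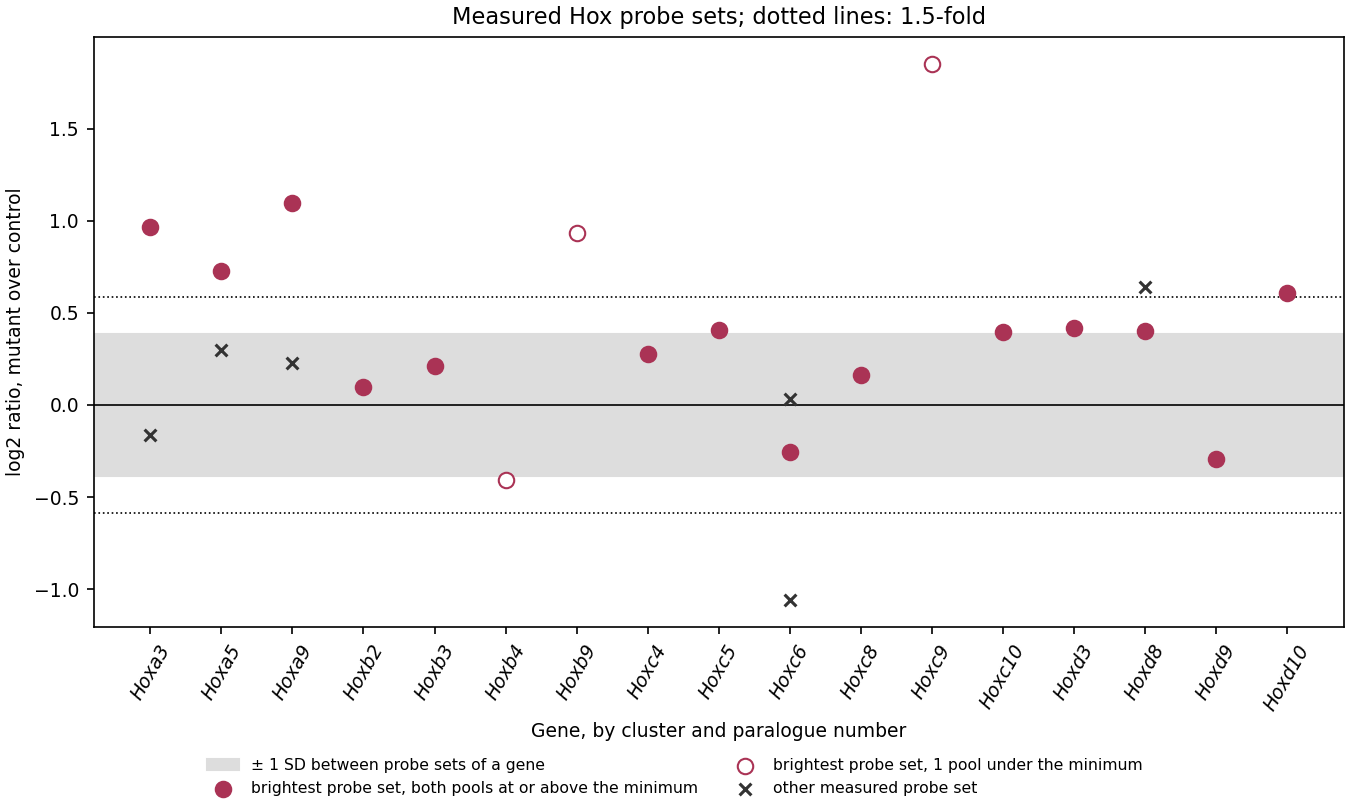
The log2 ratio of mutant to control signal, after the pseudocount of 22.2, for the 23 measured Hox probe sets of 17 genes. Filled circles are the brightest probe set of a gene, open circles those with 1 pool under the minimum, and crosses other probe sets. The grey band is 1 SD (0.38) between probe sets of a gene over all genes, which was 0.54 for Hox genes. Dotted lines are 1.5-fold. Hoxa3, Hoxa5, Hoxa9 and Hoxd10 are filled circles above the upper line, and a Hoxc6 probe set at -1.06 is the lowest point.

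By cluster, the median log2 ratio of the 14 genes at or above the minimum in both pools was 0.97 for the 3 HoxA genes, 0.15 for the 2 HoxB genes, 0.28 for the 5 HoxC genes and 0.41 for the 4 HoxD genes. The HoxA value rested on the choice of probe set, and was 0.51 with the median of each gene's probe sets and 0.30 with only probe sets of the plain _at kind. By position, the median was 0.32 for the 4 genes numbered 1 to 3, 0.34 for the 6 genes numbered 4 to 8 and 0.50 for the 4 genes numbered 9 to 13, and single genes spread more widely than these medians. Across the 14 genes, Spearman's rank correlation of the log2 ratio with paralogue number was 0.051. That is a description of genes on the same 2 arrays, with a few genes at each number.

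The 16 unmeasured genes were Hoxa2, Hoxa4, Hoxa7, Hoxa10, Hoxa11, Hoxa13, Hoxb1, Hoxb5, Hoxb6, Hoxb7, Hoxb13, Hoxc13, Hoxd1, Hoxd11, Hoxd12 and Hoxd13. Their 19 probe sets read between 1.3 and 75.3, with medians of 10.7 in control and 19.7 in mutant ovaries. Of these probe sets 11 read higher and 8 lower in the mutant pool. All values lay under the minimum, so no change is read from the medians. The medians of all unmeasured probe sets on the array were 20.8 and 20.0. Hoxa10, the gene that gives the uterus its identity, came closest to the minimum, at 54.4 in control and 75.3 in mutant ovaries, with 19.3 and 22.4 on its other probe set. Just inside the minimum were Hoxb4 at 85.3 and Hoxc9 at 90.1, each in 1 pool. Hoxa11, a gene of uterus and kidney, read 3.4 and 2.1, and Hoxa13, a gene of the vagina and hindgut, 36.4 and 31.3. Hoxb5 read 38.0 in control and 9.7 in mutant ovaries, both under the minimum, so that no fold was given.

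The genes on either side of the clusters were described as a comparison within the same stretch of chromosome. Of the 24 protein-coding genes that lie nearest to the ends of the clusters, 3 on each side in RefSeq order, 17 were measured, of which 0 passed 1.5-fold upward and 1 passed it downward, beside 9.32% and 7.90% of all measured genes, and for 17 genes such counts are near those shares. Their median log2 ratio was -0.13. Skap2, an adaptor protein gene beside HoxA, read 2410.8 in control and 1348.1 in mutant ovaries (log2 ratio -0.83). On the other side of HoxA, Hibadh had 0.14 and Tax1bp1 0.55, and beyond Skap2 lay Snx10 with -0.26. Beside HoxB, log2 ratios were -0.35 for Atp5g1, -0.12 for Skap1, -0.51 for Snx11 and 0.16 for Cbx1. Beside HoxC they were -0.09 for Calcoco1, -0.34 for Atp5g2, -0.42 for Atf7, -0.26 for Smug1, -0.14 for Cbx5 and 0.29 for Hnrnpa1. Beside HoxD, Lnpk had 0.30, Atp5g3 -0.004 and Mtx2 -0.13. Evx1 and Evx2, the homeobox genes at the posterior ends of HoxA and HoxD, stayed under the minimum, at 62.8 and 67.8 for Evx1 and 23.4 and 39.1 for Evx2 in control and mutant. The difference between the Hox genes and their neighbours has no test with 1 array per group.

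The partners and regulators of Hox proteins were taken from fixed lists, too short for a count of 0 to stand apart from the 9.32% and 7.90% of all measured genes. Of the 9 listed TALE genes 6 were measured, and by the brightest probe set 0 were at least 1.5-fold higher or lower, with a median log2 ratio of 0.14. Other measured probe sets of Pbx2 (-0.84) and Meis2 (0.66) passed 1.5-fold. Meis1, a partner of posterior Hox proteins, read 565.5 in control and 731.9 in mutant ovaries (0.36), and its other measured probe sets had -0.17 and 0.27. Pknox2 read 495.0 and 599.2 (0.26). With the median over the probe sets of each gene the TALE median was -0.07, so its sign was not fixed. The 14 measured of 15 Polycomb genes had a median of -0.10, again with 0 past 1.5-fold either way by the brightest probe set. Other measured probe sets of Ezh1 (-0.74) and Suz12 (0.60) passed it. That of Ezh1 was measured only through the control pool, so it had to read lower. Cbx8, a subunit that reads the repressive histone mark, read 113.3 in control and 68.4 in mutant ovaries (at least 1.40-fold lower, log2 ratio -0.58), and Pcgf2, a RING finger subunit, 67.8 and 104.9 (0.50). All 7 listed trithorax and H3K27 demethylase genes were measured, with a median of -0.18 and 0 past 1.5-fold by the brightest probe set. Other measured probe sets of Ash2l (-0.68), Kdm6a (-0.88) and Kdm6b (-0.71) passed it downward. Those of Ash2l and Kdm6a were measured only through the control pool, so they had to read lower. The brightest probe sets of these genes had -0.31, 0.03 and 0.25. With the median over the probe sets of each gene the trithorax median was -0.40. Kmt2b, a histone methyltransferase gene, had -0.40 and Wdr5, a core subunit of those enzymes, -0.39.

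Upstream factors of the Hox clusters were mostly too dim. Of the 9 listed, 2 were measured, the retinoic acid receptors Rarg and Rarb, with log2 ratios of 0.36 (62.1 in control, 85.8 in mutant ovaries) and 0.16 (123.1 and 140.4). The caudal genes Cdx1, Cdx2 and Cdx4 read between 0.4 and 37.9. Among the partners and targets of group 11 Hox proteins in the kidney, Eya1 had -0.03 (200.1 in control, 194.9 in mutant ovaries). Gdnf, a growth factor gene of that pathway, read 105.1 in control and 331.2 in mutant ovaries, 3.15-fold higher. Six2 stayed under the minimum, at 72.6 and 79.3.

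Cell type markers also differed between the pools. All 5 markers of gonadal stroma (Pdgfra, Tcf21, Nr2f1, Nr2f2 and Maf) were at least 1.5-fold higher in the mutant pool, with a median log2 ratio of 0.90 and summed signals of 12685 in control and 25963 in mutant ovaries. The 5 granulosa markers had a median of -0.95, with summed signals of 13740 and 7573, and Foxl2, Fst, Runx1 and Lgr5 were past 1.5-fold lower. The 5 germ cell markers had -0.77, with 21950 and 12875, and Ddx4, Figla, Nobox and Sohlh1 were past it. Of all measured genes, 9.32% were past 1.5-fold upward and 7.90% downward. The marker lists were chosen with earlier results of these data known, so their common direction is not independent evidence. In tissue RNA, fewer cells of a type and less RNA per cell cannot be told apart. The part of this difference in cell markers in the Hox values was not tested. Of the 7 Müllerian duct and oviduct markers 4 were measured, with a median of -0.21 and summed signals of 1581 in control and 1194 in mutant ovaries. Among them Emx2, which made up most of both sums, read 1328.1 and 963.5, Wnt7a 63.3 and 88.8, Pax8 105.4 and 107.9, and Ovgp1 83.7 and 33.3. Wnt7a was measured only through the mutant pool and Ovgp1 only through the control pool, so both had to differ. The median and sums therefore do not measure an amount of duct tissue. Lhx1, a defining gene of the duct, stayed under the minimum, between 0.6 and 25.5, in both pools.

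Few markers of muscle, kidney and hindgut, tissues that use Hox genes, were measured. Of the 5 skeletal muscle and body wall markers 0 were measured, with all readings between 2.1 and 71.9. Of the 6 kidney markers 1 was measured, Umod at 140.9 in control and 122.3 in mutant ovaries. Of the 3 hindgut markers 1 was measured, Vil1 at 534.7 and 386.6. All 5 blood markers were measured, and they did not move one way. The leukocyte marker Ptprc read 275.7 in control and 494.5 in mutant ovaries (1.79-fold higher) and the macrophage marker Csf1r 3274.2 and 5610.9 (1.71-fold higher). Alas2, a haem synthesis gene of red cells, read 408.6 and 116.0, 3.52-fold lower. The remaining blood markers, Klf1 at 250.2 and 218.6 (log2 ratio -0.18) and Gata1 at 139.7 and 177.0 (0.30), did not pass 1.5-fold. Of the 4 nerve and glia markers, S100b read 68.9 in control and 161.8 in mutant ovaries and Th 165.3 and 133.8, while Sox10 stayed under the minimum.

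**Figure D3:**
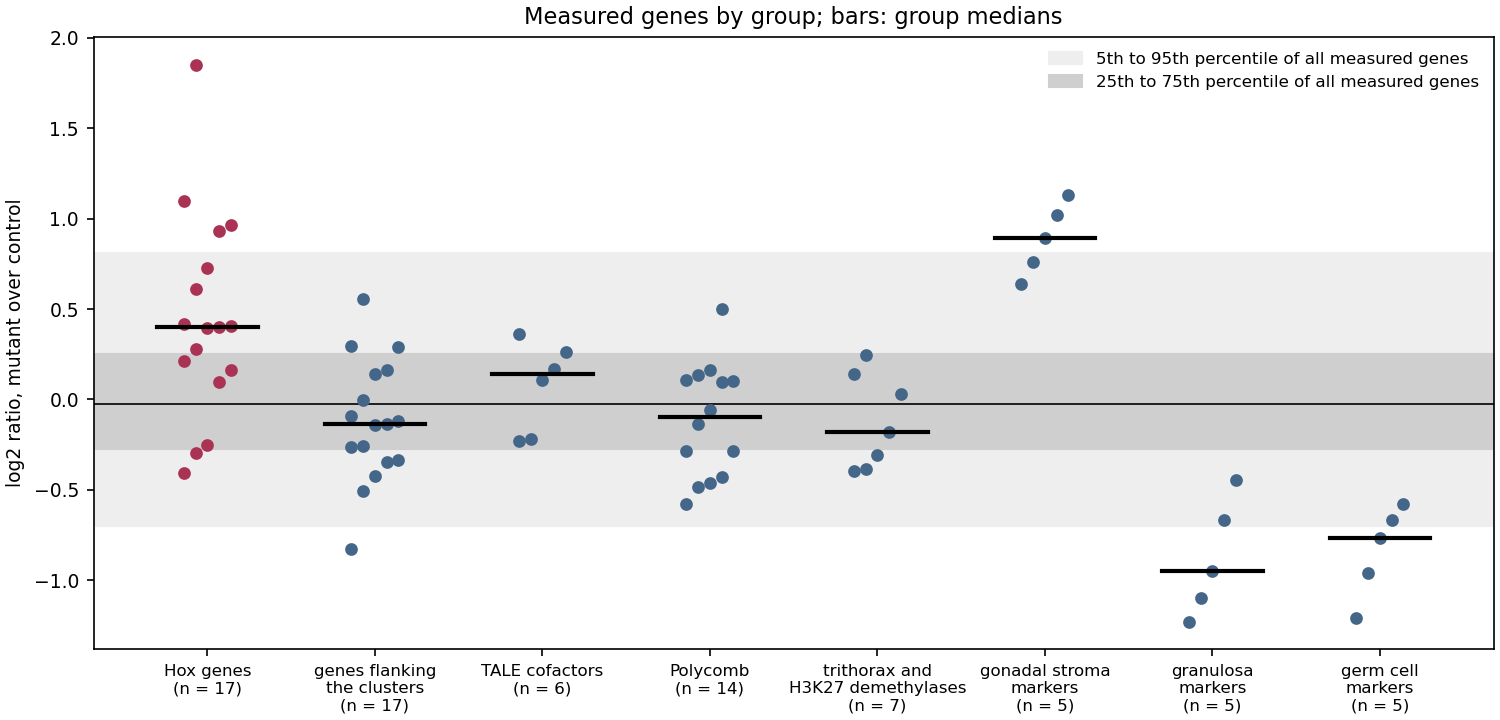
The log2 ratio of mutant to control for each measured gene of a group, with the group median as a bar, and bands for the middle of all 12308 measured genes (25th to 75th percentile, -0.27 to 0.25, and 5th to 95th, -0.70 to 0.81). The median of the 17 Hox genes, 0.40, lies above the inner band, and was 0.21 with the signal minimum lowered to 22.2. The medians of flanking genes, TALE, Polycomb and trithorax genes lie inside it, and those of the stromal, granulosa and germ cell markers outside the outer one. The marker lists were chosen with earlier results of these data known.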

How the data were processed

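The file holds linear signal intensities, 1 per probe set and array, as the authors deposited them, and GCOS is the software named per the submitters' processing notes. With 2% trimmed at each end, the mean intensity of either array was 500.003, so they share a scale. How it was set is not stated in the labels, and no detection calls entered the analysis. The intensities were used as deposited by the authors, in Python with pandas 2.3.3. Gene names came from the platform annotation, and the Entrez IDs of all 33 Hox genes matched the RefSeq table of GRCm38.p6. Probe sets with several symbols were left unnamed. A measured probe set had its higher signal at or above 80.7, a fold with 1 value under that minimum is a lower bound (brighter signal divided by 80.7), and counts use the log2 ratio with a pseudocount of 22.2. The calculation was tested on simulated data, with noise well under the SD between probe sets and large changes in brighter genes only. That test says nothing about small changes in dim genes. The number of arrays limits the precision.

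Every measured Hox gene is named. From each list of partners and regulators, the text names genes past 1.5-fold, up to 4, or else the pair with the largest log2 ratios, and all measured flanking genes. The members and lists were chosen with earlier results of these data known. Other genes that the text names, such as marker genes and genes under the minimum, were picked after their values were seen.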

Additional observations from a re-analysis of the deposited data

How the results depend on the processing

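No paired analysis was possible because each group holds 1 array, and for the same reason no replicate could be left out. The 10 alternatives changed the signal minimum, the pseudocount, the scaling or the choice of probe set. Of 158 values of single Hox genes under them, 150 moved by less than the SD of 0.38 between probe sets of a gene. Many of these could hardly move, so the count overstates how stable the ratios are. A change of the minimum left the ratio of a measured gene as it was, and centring shifted all genes by the same small amount. The choice of probe set could not matter for a gene with 1 measured probe set of the plain _at kind. Hoxa3 reversed, to -0.16, with only plain _at probe sets, which leave out its _s_at probe set, and Hoxc6 went from -0.25 to 0.03 in the same setting. Hoxa9 stayed past 1.5-fold under all 10, but no setting used its second probe set (log2 ratio 0.23) alone. With the median of its probe sets the Hoxa9 ratio was 0.66. With the minimum at the 75th percentile, 8 Hox genes were measured, 7 of them above 0, 2 at least 1.5-fold and 1 at least 2-fold higher. Past 1.5-fold upward were then 7.07% of all measured genes. With the minimum at the 25th percentile, 25 Hox genes were measured, 17 of them above 0. Of these, 6 were at least 1.5-fold higher, beside 11.65% of all measured genes, and 1 (Hoxb5) was that much lower, beside 10.5%. In that setting 1 TALE gene was past 1.5-fold higher and 1 upstream regulator lower, and medians were 0.35 for HoxA and 0.10 for the group 11 partners. The count of Hox genes at least 2-fold higher, 2 in the main setting, was 1 when both pools had to reach the minimum or with the median of the probe sets, 0 with 80.7 as the pseudocount and 4 with 1. The share of all measured genes past 2-fold upward, 3.21%, is that of the main setting. At 1.5-fold upward, 6 of all 17 Hox genes passed in the main setting. That count was 4 when both pools had to reach the minimum, with 80.7 as the pseudocount or with values raised to the minimum. It was also 4 with the median of the probe sets or with plain _at probe sets. Past 1.5-fold upward in these settings were 6.67% to 9.25% of all measured genes. The median of the measured Hox genes, 0.40, ran from 0.21 (minimum at the 25th percentile) to 0.45, with 0.28 when values were raised to the minimum and 0.30 with plain _at probe sets. The HoxA median of 0.97 was 0.51 with the median of the probe sets and 0.30 with plain _at probe sets only. The median of all 6 measured posterior genes, 0.77, was 0.50 without Hoxb9 and Hoxc9 and 0.35 with values raised to the minimum, and the rank correlation with paralogue number was 0.26 over all 17 genes. A pseudocount of 1 put 1 Polycomb gene past 1.5-fold in each direction, and plain _at probe sets put 1 Polycomb gene higher and 1 trithorax gene lower. Dim signal limits most members, since 8 of the 17 measured genes had a mean signal under 2 times the minimum.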

Other observations

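Probe sets of the clusters that carry an antisense gene or more than 1 Hox symbol were not members and are given as values. The antisense gene Hoxd3os1 read 313.3 in control and 391.5 in mutant ovaries on 1 probe set (log2 ratio 0.30) and stayed under the minimum on another, at 47.9 and 38.8. Hoxb5os read 81.8 and 69.7. Both probe sets of Hoxa11os stayed under the minimum, between 1.4 and 21.8. A probe set that names Hoxd3 and Hoxd4 read 87.4 in control and 155.0 in mutant ovaries (log2 ratio 0.69), and a second one 80.3 and 63.4. A probe set that names Hoxb7 and Hoxb8 read 108.6 and 87.6 (log2 ratio -0.25).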
